A study of Homo sapiens with 6 samples.

Results

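A set of 9 genes of blood stem and progenitor cells was compared between sensitive cells and cells with acquired azacitidine resistance in K562, a human chronic myeloid leukaemia line. The list of names was drawn up with earlier results of these data known. They are CD34, CD44, PROM1, MECOM, ERG, MEIS1, HLF, MSI2 and SOX4, and each matched 1 of the 61487 gene IDs in the count table. Azacitidine is a cytidine analogue that traps DNA methyltransferases. The sensitive group is the parental line (3 libraries) and the resistant group (3 libraries) was derived from it by continuous exposure to rising drug concentrations over months. Both groups were grown in the same RPMI medium with serum, and the labels record no treatment of either group. The titles number 3 biological replicates a group, but whether these were grown or derived apart is not stated, and a p-value here reflects library-to-library spread only. Drug resistance and any other difference that the long culture brought cannot be told apart.

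Haematopoietic stem cells keep a small set of transcription factors that favour self-renewal over differentiation, and they carry surface proteins that tie them to the bone marrow niche. CD34, a sialomucin, and PROM1, a membrane protein of cell protrusions, are used to purify such cells. CD44 is the main receptor for the matrix polysaccharide hyaluronan and is also displayed by many leukaemic blasts. MECOM (a zinc finger factor), ERG (an ETS factor), MEIS1 (a homeobox partner of HOX and PBX proteins), HLF (a basic leucine zipper factor) and SOX4 (an HMG box factor) act on DNA, and MSI2, a Musashi protein, binds RNA.

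Total counts ranged from 33007642 (resistant replicate 1) to 43006918 (sensitive replicate 3) per library, and 3 counts equal 0.0698 to 0.0909 CPM (TMM-scaled counts relative to library size). Even numbers made up 59.3% to 64.4% of the counts between 1 and 10, and the sources used here do not state whether reads or fragments were counted, so counts of a few reads may come from fewer molecules. The first principal component, with 66.3% of the variance, separated the groups, and the second, with 18.0%, placed the libraries numbered 3 at −43.4 (sensitive) and −73.2 (resistant), below the other 4 (12.9 to 48.8). The label calls the cells myeloblasts. Of 9 myeloblast markers, the granule protein genes MPO (2 to 4 counts per library), ELANE (0 to 2 counts) and CTSG (0 in all 6 libraries) were nearly absent. The other 6 were counted in every library, from CD33 at 104.8 ± 6.34 CPM to CEBPE at 1.29 ± 0.350 CPM in sensitive cells, with CSF3R (5.79), AZU1 (3.88), CEBPA (2.02) and PRTN3 (1.38) between them. The erythroid factor gene GATA1 measured 113.5 ± 14.5 CPM in sensitive and 84.1 ± 3.68 CPM in resistant cells (mean ± SD, n = 3, here and below).

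The sequence set below shows the 250 bases before RefSeq starts of MEIS1, MSI2 and ERG, shown because the counts of these genes differed between the groups. The windows printed hold no base of a GENCODE 29 exon, and not every such window is printed. Windows are on GRCh38.p14, written 5′ to 3′ on the gene's strand, with CpG dinucleotides, the substrate of the enzymes that azacitidine traps, in capitals. The counts here do not resolve which start was used, and methylation was not measured.
MEIS1 (plus strand, chr2:66434875-66435124): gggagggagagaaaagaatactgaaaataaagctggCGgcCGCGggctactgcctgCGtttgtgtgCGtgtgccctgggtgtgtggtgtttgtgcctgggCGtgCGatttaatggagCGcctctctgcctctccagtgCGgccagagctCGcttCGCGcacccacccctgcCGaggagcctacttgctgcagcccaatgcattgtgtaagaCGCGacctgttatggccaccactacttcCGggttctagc
MSI2 (plus strand, chr17:57255601-57255850): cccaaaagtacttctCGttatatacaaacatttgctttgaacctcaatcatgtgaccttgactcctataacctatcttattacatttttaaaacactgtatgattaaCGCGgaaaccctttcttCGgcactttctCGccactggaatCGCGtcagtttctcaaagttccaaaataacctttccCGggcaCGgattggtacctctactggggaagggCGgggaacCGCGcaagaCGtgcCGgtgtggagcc
ERG, upstream start (minus strand, chr21:38660668-38660917): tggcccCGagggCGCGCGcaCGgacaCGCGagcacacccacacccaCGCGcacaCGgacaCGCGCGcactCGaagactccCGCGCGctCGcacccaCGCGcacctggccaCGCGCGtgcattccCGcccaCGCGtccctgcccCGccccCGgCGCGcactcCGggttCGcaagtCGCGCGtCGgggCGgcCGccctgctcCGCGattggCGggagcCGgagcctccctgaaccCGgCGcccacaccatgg
ERG, downstream start (minus strand, chr21:38498505-38498754): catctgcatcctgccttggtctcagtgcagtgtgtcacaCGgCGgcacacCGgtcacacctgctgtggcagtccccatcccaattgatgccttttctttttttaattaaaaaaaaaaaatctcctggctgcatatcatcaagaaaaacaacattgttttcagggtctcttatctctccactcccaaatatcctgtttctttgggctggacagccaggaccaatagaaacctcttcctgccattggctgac
The upstream ERG window held 44 CpGs, more than 99.2% of the 35116 RefSeq windows of this length, while the downstream one held 3. A further ERG window between them, chr21:38584946-38585195, held 2 and is not printed. The MEIS1 window held 16 CpGs and the printed MSI2 window 14, where the median of all windows was 11. Another MSI2 window, chr17:57256769-57257018, overlaps an exon and is not printed. It held 31 CpGs, more than 89.2% of all windows. The CD44 window, chr11:35138921-35139170, held 15 CpGs and the SOX4 window, chr6:21593501-21593750, held 8. Both lie inside annotated GENCODE 29 exons and are not printed. On both strands the windows were searched for the erythroid factor motif AGATAA, which 9.17% of all windows hold, for the MEIS motif TGACAG, which 13.0% hold, and for the ETS motif CCGGAA, which 14.5% hold. Each motif was counted on its own. Among the printed windows, the downstream ERG window had 1 AGATAA match and the MEIS1 window 1 CCGGAA match, and the CD44 and SOX4 windows had none of the 3. A match of letters is a description and not a binding site.

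CD44 was far lower in resistant cells than in sensitive cells. It measured 90.3, 85.6 and 80.4 CPM in sensitive replicates 1 to 3 and 3.54, 2.67 and 1.31 CPM in resistant replicates 1 to 3. The groups did not overlap, and the highest resistant value stood far below the lowest sensitive one. The mean fell from 85.4 ± 4.92 to 2.51 ± 1.12 CPM, a 34.1-fold decrease and a log2 fold change of −5.09 ± 0.32 (SE, edgeR adjusted p = 5.22e-06), rank 91 by p among the 20891 genes tested. The gene lies on chromosome 11 (35138870 to 35232402, plus strand). Its spread between libraries was 5.77% of the mean in sensitive and 44.8% in resistant cells, where between 50 and 128 counts remained per library. In bulk RNA, fewer cells with CD44 transcripts and fewer transcripts per cell cannot be told apart. The value counts all CD44 isoforms together, so standard and variant exons were not separated.

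**Figure D1:**
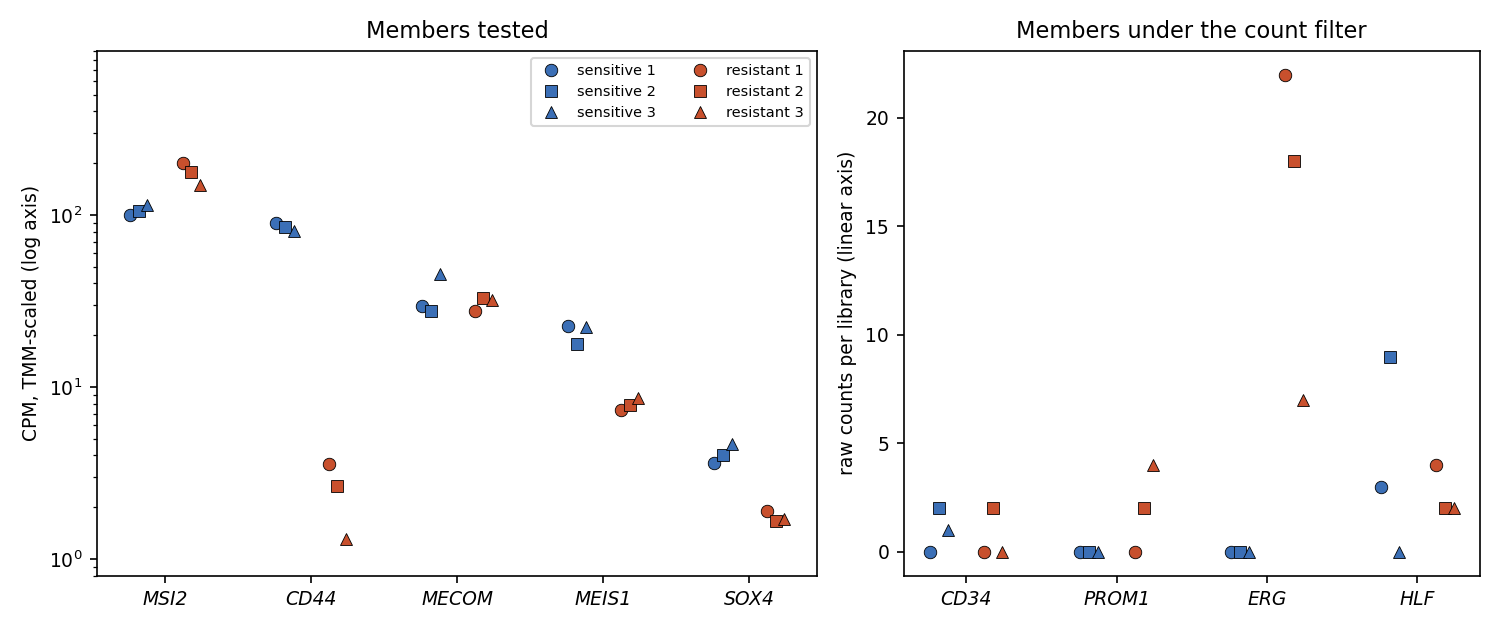
Left, CPM on a log axis of the 5 genes that passed the count filter, and right, raw counts on a linear axis of the 4 that did not; each point is 1 library, blue for sensitive and red for resistant. CD44, MEIS1 and SOX4 lie lower in all 3 resistant libraries, MSI2 and ERG higher, and the MECOM groups overlap.

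Features annotated inside CD44 were low in the same libraries. The antisense gene CD44-AS1 had 47, 12 and 15 counts in sensitive and 2, 0 and 0 in resistant libraries. An intronic sense transcript of the locus (ENSG00000251194) had 16, 17 and 26 counts against 0, 2 and 0. Both features passed the count filter only through the sensitive libraries, where they are high, so their test values are not given. The strand setting of the counting is not given, so reads of CD44 and of these features cannot be told apart. No neighbouring gene changed to a like extent. Of the 5 nearest tested protein-coding genes on each side, which span 34150988 to 36465204 on chromosome 11, 1 rose, 1 fell and 8 did not pass, with log2 fold changes between −1.01 and 0.67. The nearest on each side were PDHX, a pyruvate dehydrogenase component gene (−0.49, adjusted p = 0.100), and FJX1 (0.67, 0.0496).

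By the root mean square distance between log2 CPM profiles over the 6 libraries, taken relative to the sensitive mean, the protein-coding gene most like CD44 among 10678 candidates was KIT, the stem cell factor receptor gene (distance 0.25). KIT measured 113, 114 and 137 CPM in sensitive and 4.35, 4.58 and 1.42 CPM in resistant libraries, a log2 fold change of −5.13 ± 0.39 (SE). Resistant replicate 3 was the lowest library for both genes. The next was SYBU (distance 0.33, −5.23).

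MEIS1 also fell. Its CPM values were 22.8, 17.8 and 22.3 in sensitive and 7.34, 7.84 and 8.58 in resistant libraries, with no overlap between the groups. The mean fell from 20.9 ± 2.72 to 7.92 ± 0.623 CPM, 2.65-fold, or −1.40 ± 0.18 on the log2 scale (SE, edgeR adjusted p = 4.33e-04). MEIS1 lies on chromosome 2 (66433452 to 66573869, plus strand), where 8 of its 10 tested neighbours did not pass, 1 rose and 1 fell, with a median log2 fold change of −0.05. The antisense gene MEIS1-AS2 inside it had 3 to 13 counts per library, under the count filter. The profiles most like that of MEIS1 were those of C12orf76 (distance 0.10) and ZNF799 (0.11).

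SOX4 fell as well, from a low level. It measured 3.59, 4.03 and 4.66 CPM in sensitive and 1.91, 1.66 and 1.71 CPM in resistant libraries, and the groups did not overlap. The mean fell from 4.09 ± 0.537 to 1.76 ± 0.134 CPM, 2.33-fold, with a log2 fold change of −1.22 ± 0.27 (SE, edgeR adjusted p = 0.00959). This call was lost without resistant replicate 2 (−1.18, adjusted p = 0.0566). SOX4 occupies a single exon on chromosome 6 (21592768 to 21598619, plus strand), and 8 of 10 tested neighbours did not pass. Its most alike profiles were SMAP2 (distance 0.08) and LEF1 (0.11), the gene of a Wnt pathway transcription factor.

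MSI2 moved the other way. It measured 100.5, 105 and 115 CPM in sensitive and 201, 177 and 149.9 CPM in resistant libraries, again without overlap. The mean rose from 107 ± 7.24 to 176 ± 25.6 CPM, 1.65-fold, a log2 fold change of 0.72 ± 0.16 (SE, edgeR adjusted p = 0.0109). It no longer passed when 1 library was left out, namely sensitive replicate 1 (adjusted p = 0.0738), sensitive replicate 2 (0.0631), or resistant replicate 2 (0.0623). The same held with offsets for transcript length and GC content, where the log2 fold change was 0.31 (0.284). MSI2 has the longest annotated exon total of the 9 genes (21479 bases) and spans chromosome 17 from 57255851 to 57684685 (plus strand). Other features annotated inside its span were uneven between resistant libraries: ENSG00000279555 had 260, 150 and 29 counts in resistant and 46, 50 and 27 in sensitive libraries, and ENSG00000279281 had 173, 68 and 13 against 19, 23 and 14. Neither passed (adjusted p = 0.0759 and 0.0708), and their part in the MSI2 value was not tested. The profiles most like that of MSI2 were those of KHDRBS1, which also encodes an RNA-binding protein (distance 0.04), and WDR7 (0.045).

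**Figure D2:**
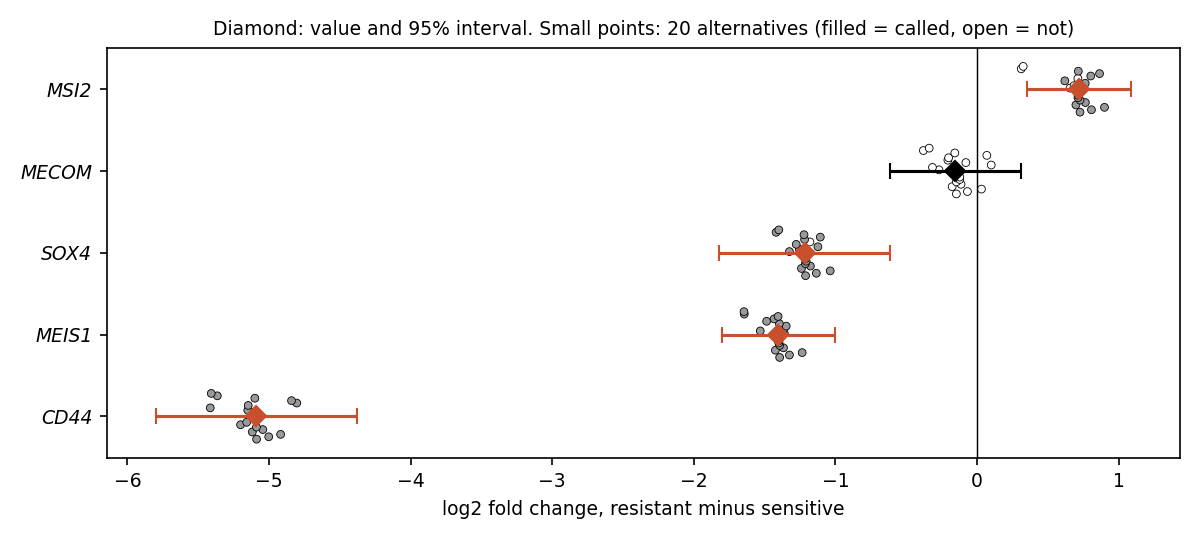
Log2 fold change (resistant minus sensitive) of the 5 tested genes, with diamonds for the value, bars for its 95% interval and small points for 20 alternatives, filled where called at that alternative's threshold. CD44 and MEIS1 stay called under all 20, SOX4 under 18 and MSI2 under 13, and MECOM under none.

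MECOM did not pass the test. It measured 29.7, 27.5 and 45.6 CPM in sensitive and 27.7, 32.9 and 31.8 CPM in resistant libraries, and the groups overlapped. Sensitive replicate 3 was the highest of the 6. The log2 fold change was −0.15 ± 0.21 (SE, edgeR adjusted p = 0.633), with a 95% interval from −0.62 to 0.31. Its sign turned without sensitive replicate 3 (0.10), without both libraries numbered 3 (0.07) and with library totals alone (0.03). The gene spans chromosome 3 from 169083499 to 169663618 (minus strand). Its long MDS1-EVI1 form and its shorter EVI1 form were not separated.

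ERG was counted in the 3 resistant libraries and in no sensitive one. It had 0 counts in all 3 sensitive libraries and 22, 18 and 7 counts in resistant replicates 1 to 3, or 0.609, 0.453 and 0.184 CPM. Against 3 counts over the sensitive group it was at least 15.3-fold higher, and at least 11.9-fold without resistant replicate 1. With 7 counts in resistant replicate 3, ERG stayed under the count filter and has no test in the fit reported here. With or without a count filter it can enter a test only through the resistant libraries, where it is high. Its test values are therefore not given. It lies on chromosome 21 (38380027 to 38661780, minus strand), 144 kb from the related gene ETS2, which fell from 30.3 to 19.3 CPM.

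CD34, PROM1 and HLF were at the limit of detection in both groups. CD34 had 0, 2 and 1 counts in sensitive and 0, 2 and 0 in resistant libraries, so transcripts of the marker by which progenitors are sorted were near 0 in both groups. PROM1 was at 0 in every sensitive library and at 0, 2 and 4 counts in resistant ones. HLF had 3, 9 and 0 counts against 4, 2 and 2. None was tested, and a difference was not detectable at this depth. With genes left unfiltered their adjusted p-values were 0.877, 0.283 and 0.779.

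Of the 9 genes, 5 passed the filter. Among these, 1 was called higher, where 9.83% of all tested genes were, and 3 lower, where 13.1% were. The groups did not overlap for 4 of the 5, against 40.1% of all tested genes. The median log2 fold change of all tested genes was 0.03.

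Per kilobase of annotated exon, scaled to the same sum in each library (a TPM-like level, from GENCODE 29 exon lengths), the order of the genes differed between the groups. In sensitive cells CD44 was highest at 15.6 ± 2.49, then MSI2 (9.0 ± 0.472), MECOM (6.76 ± 1.56), MEIS1 (3.49 ± 0.694) and SOX4 (1.26 ± 0.0674), and no neighbours in that order overlapped between libraries. In resistant cells MSI2 led at 18.9 ± 3.11, followed by MECOM (7.76 ± 0.484), MEIS1 (1.66 ± 0.160), SOX4 (0.692 ± 0.0849), CD44 (0.576 ± 0.269) and ERG (0.126 ± 0.0674). There SOX4 and CD44 overlapped, with 0.610 to 0.780 and 0.309 to 0.846, and did not differ beyond their spread.

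The closest relatives of the 9 genes were read from a list of 17. Among the 12 that could be tested there were 2 higher and 1 lower, where 9.83% and 13.1% of all tested genes were. The median log2 fold change of the 12 was 0.22 (−0.02 with no filter). MEIS3 fell from 8.14, 12.3 and 1.74 CPM in sensitive to 0.581, 0.553 and 0.420 CPM in resistant libraries (−3.83 ± 0.63 SE, adjusted p = 0.00211), sensitive replicate 3 being far below the other sensitive ones. MEIS2 measured 17.3 ± 2.66 and 23.7 ± 0.985 CPM and did not pass (0.45, 0.0802). It was called higher under 5 of the 20 alternatives. These include library totals alone (0.63, 0.0189), sensitive replicate 3 left out (0.57, 0.0382) and both libraries numbered 3 left out (0.60, 0.00267). MSI1, the other Musashi gene, is counted among the 2 higher. It measured 1.00, 0.451 and 0.107 CPM in sensitive and 4.04, 1.89 and 1.60 CPM in resistant libraries. Its fitted log2 fold change was 2.25. With 4 counts in sensitive replicate 3, MSI1 could pass the count filter only with the resistant libraries, where it is high. Its adjusted p is therefore not given. The log2 fold change of MSI1 was 3.15 without sensitive replicate 1. Its call was lost on leaving out sensitive replicate 2 or 3, or resistant replicate 1 or 2. FEV, an ETS gene of the ERG subfamily, rose 3.45-fold from 0.462 ± 0.0690 to 1.60 ± 0.676 CPM (adjusted p = 0.0174). FEV did not pass on leaving out sensitive replicate 1 (0.0783), or resistant replicate 1 (0.0661) or 2 (0.0628). FLI1, the closest relative of ERG, and SOX11 had no counts in any library.

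PBX proteins bind DNA together with MEIS proteins. PBX3 rose from 1.12, 1.503 and 0.375 to 10.4, 7.47 and 6.71 CPM (3.03 ± 0.44 SE, edgeR adjusted p = 0.00101), opposite in direction to MEIS1 and MEIS3. PBX2 (0.14, 0.586) and PBX4 (0.03, 0.978) did not pass. HOXA9, a HOX partner of MEIS1 in myeloid leukaemia, had 0 counts in sensitive and 4, 6 and 2 in resistant libraries.

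**Figure D3:**
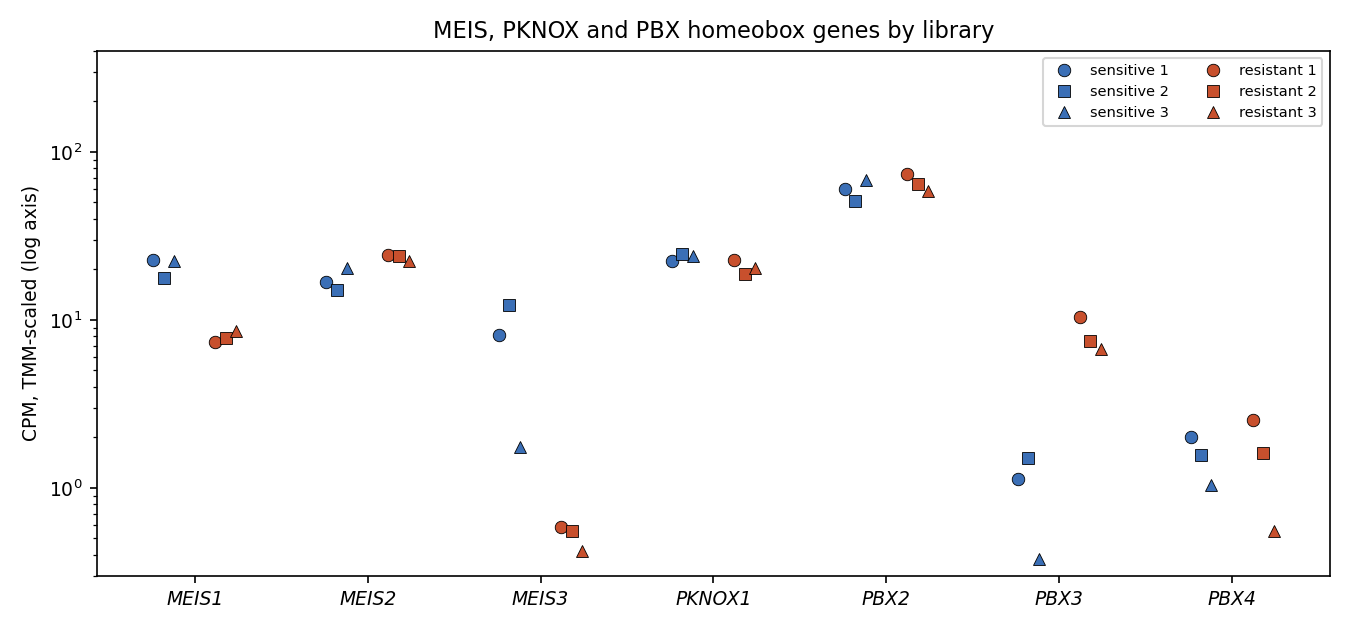
CPM on a log axis of MEIS, PKNOX and PBX homeobox genes in each library, blue for sensitive and red for resistant. PBX3 is higher and MEIS1 and MEIS3 are lower in all resistant libraries, and sensitive replicate 3 is low for MEIS3 and PBX3.

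Of 21 regulators of progenitors in a list that includes PBX3, 17 could be tested. Of these 2 rose and 2 fell, where 9.83% and 13.1% of all tested genes did. The median log2 fold change of the 17 was −0.13. It turned to 0.06 with library totals alone, 0.07 without sensitive replicate 3 and 0.20 without both libraries numbered 3. Besides PBX3, MLLT3, a chromatin reader gene, rose from 0.607 ± 0.171 to 3.58 ± 1.96 CPM (2.55 ± 0.46 SE, adjusted p = 0.00325). GFI1, a zinc finger repressor gene, fell from 7.59 ± 1.00 to 1.76 ± 0.418 CPM, and LMO2, a bridging factor of the erythroid and stem cell complex, from 85.7 ± 12.2 to 44.7 ± 9.63 CPM. The LMO2 call was lost without resistant replicate 2 (−0.86, adjusted p = 0.0524). GATA2 (−0.16, adjusted p = 0.561), RUNX1 (0.35, 0.149), TAL1 (0.55, 0.0602) and MYB (−0.57, 0.121) did not pass.

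Other surface genes of progenitors were read next. In a list of 19 with 12 testable, 5 fell, 1 rose and 6 missed the threshold (median −0.87). Of all tested genes, 13.1% fell and 9.83% rose. Besides KIT, IL1RAP, an interleukin-1 receptor subunit gene displayed on leukaemic progenitors, fell from 7.28 ± 2.23 to 0.235 ± 0.150 CPM. IL1RAP, 1 of the 5 that fell, had 9, 15 and 3 counts in the resistant libraries. It passed the count filter only through the sensitive libraries, where it is high. CD47, which signals to macrophages not to engulf the cell, fell from 163 ± 30.7 to 76.3 ± 6.33 CPM. CXCR4, the receptor that homes progenitors to marrow, rose from 2, 3 and 0 counts to 119, 161 and 122 counts, or 3.29, 4.05 and 3.20 CPM. Its fitted log2 fold change was 6.18, and 6.92 without sensitive replicate 2, and depends on the few sensitive counts. CXCR4, the 1 gene of this list called higher, passed the count filter only through the resistant libraries. Its adjusted p is therefore not given. FLT3 (0 to 4 counts), SPINK2 and CLEC12A (0 in all libraries) were not tested.

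Genes that make, bind or process CD44 and its ligand were also listed. The 20 include 16 testable genes, with 5 lower, 2 higher and 9 that missed the threshold (median −0.34). The shares over all tested genes were 13.1% lower and 9.83% higher. VCAN, among the 5 lower, had 10, 4 and 4 counts in the resistant libraries. It passed the count filter only through the sensitive libraries, where it is high. SRGN, the serglycin proteoglycan that CD44 binds, fell from 115 ± 3.91 to 49.4 ± 13.2 CPM. EZR (ezrin), which links the CD44 tail to actin, fell from 173 ± 22.6 to 93.3 ± 7.58 CPM, and ADAM17, a sheddase, from 106 ± 5.29 to 58.2 ± 7.68 CPM. The hyaluronan-degrading gene CEMIP2 fell from 51.7 ± 6.83 to 17.5 ± 2.29 CPM, while its relative CEMIP rose from 0.584 ± 0.112 to 2.21 ± 1.16 CPM. NF2 (merlin), a relative of ezrin, rose from 37.4 ± 2.99 to 64.2 ± 6.29 CPM. The hyaluronan synthase genes HAS1 and HAS2 had at most 8 counts per library, and HAS3 did not pass (0.63, adjusted p = 0.214).

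Of 17 genes of a published leukaemia stem cell score, to which CD34 belongs, 10 could be tested. The test called 5 lower and 2 higher, against 13.1% and 9.83% of all tested genes, and the median of the 10 was −0.32. AKR1C3, an aldo-keto reductase gene, rose from 4.94 ± 1.53 to 58.9 ± 9.88 CPM. EMP1 fell from 2.21 ± 0.569 to 0.121 ± 0.0749 CPM, NYNRIN from 7.31 ± 0.689 to 2.10 ± 0.961 CPM, and CPXM1 from 81.0, 90.8 and 7.39 to 3.90, 3.85 and 4.77 CPM, with sensitive replicate 3 close to the resistant libraries. EMP1, among the 5 lower, had 4, 8 and 2 counts in the resistant libraries. It passed the count filter only through the sensitive libraries, where it is high. The called genes of this list went both ways.

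**Figure D4:**
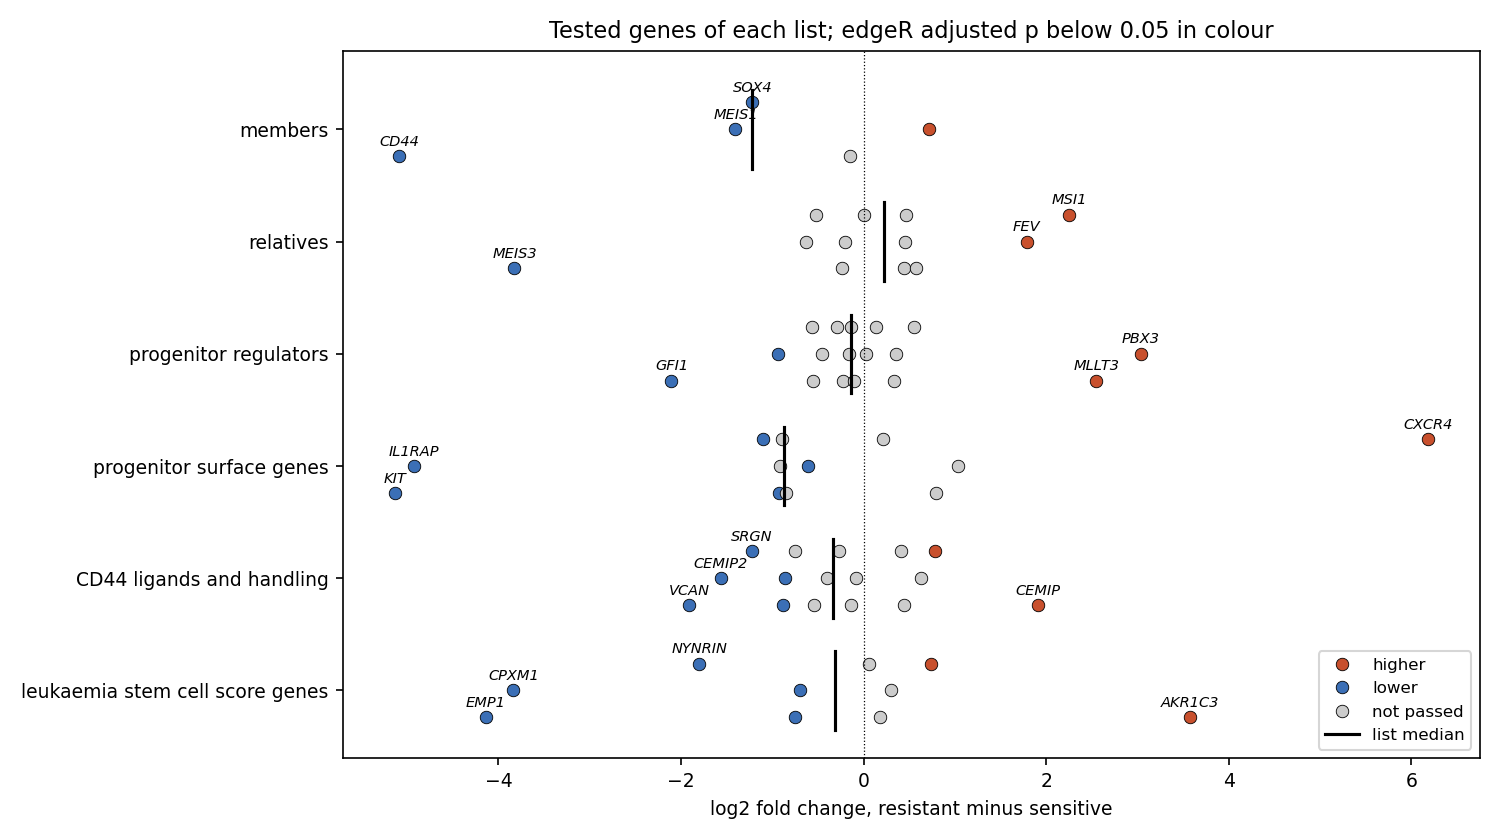
Log2 fold change (resistant minus sensitive) of each tested gene in 6 lists, coloured where edgeR's adjusted p was below 0.05, with a bar at each list's median. CD44 and KIT lie furthest to the left at about the same value, with IL1RAP (−4.93) close to them, and CXCR4 furthest to the right.

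The surroundings of the 4 called genes were compared with the genes themselves. The 10 tested neighbours had a median log2 fold change of −0.25 around CD44, −0.05 around MEIS1, −0.19 around SOX4 and 0.03 around MSI2. These neighbours can lie far off: the nearest to MEIS1 was 823 kb away, and the furthest from SOX4 3370 kb. No neighbour of CD44 or MEIS1 fell as far as the gene itself. MBOAT1, 1380 kb from SOX4 (−1.08), and DYNLL2, 399 kb from MSI2 (0.72), changed by about as much as SOX4 and MSI2 did. Around HLF, itself at 0 to 9 counts, 5 of 10 neighbours fell and none rose, where 13.1% and 9.83% of all tested genes did. Among those that fell were MMD (−2.53 ± 0.22 SE) and PCTP (−2.05 ± 0.19 SE). TMEM100 and ANKFN1, also among the 5, averaged 0.0936 and 0.238 CPM in resistant cells. Both passed the count filter only through the sensitive libraries, where they are high.

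**Figure D5:**
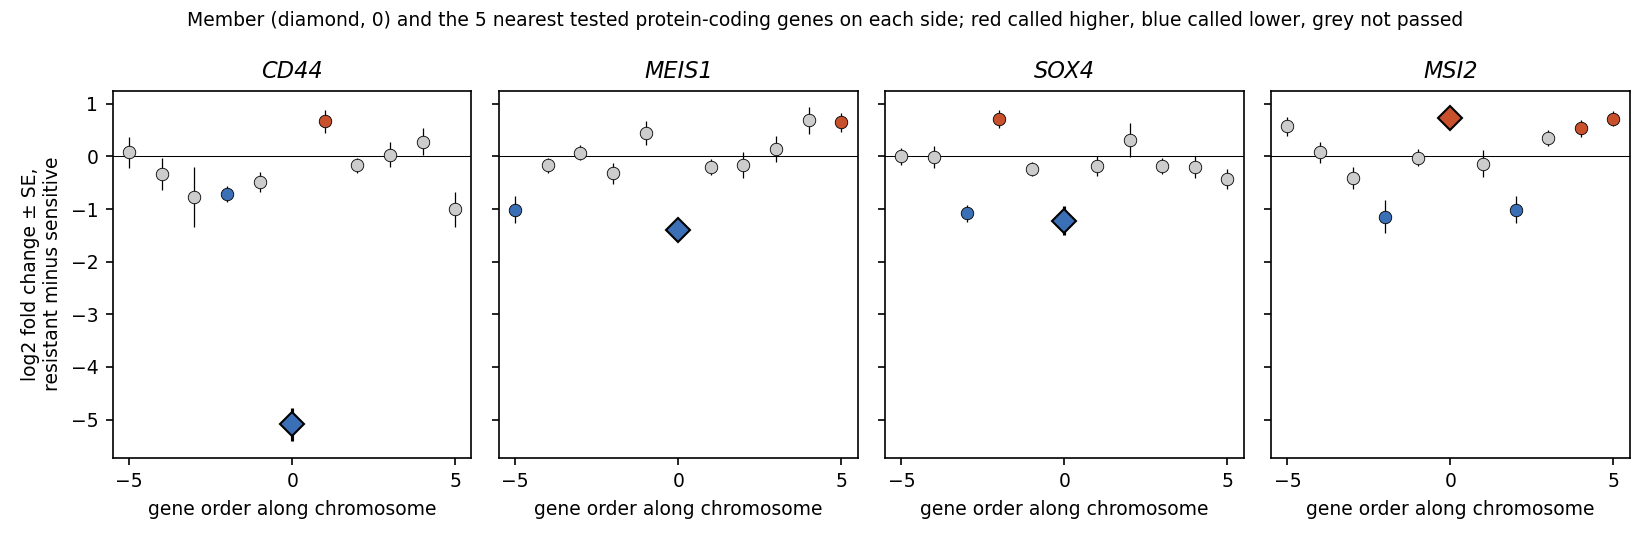
Log2 fold change ± SE of CD44, MEIS1, SOX4 and MSI2 (diamonds) and of the 5 nearest tested protein-coding genes on each side, in gene order. Only the CD44 diamond lies below −2, and its neighbours lie between −1.01 and 0.67.

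Markers of other cell types were read in the same libraries. Endothelial cells also express CD34, ERG and MECOM, and of their markers EMCN had 0 counts in all libraries, CDH5 0 or 1, VWF 0 to 3 and KDR 0 to 8. The summed level of the 8 endothelial markers was 23.5 to 41.3 CPM in sensitive and 6.74 to 15.9 CPM in resistant libraries, most of it PECAM1. The 8 lymphoid markers summed to 25.2 to 103.8 CPM and 10.8 to 12.9 CPM, with MS4A1 at 0 in all libraries and CD2 at 0 to 2 counts, and CD3D the main part in sensitive cells (47.3 ± 41.8 CPM). The 7 fibroblast markers summed to 1.32 to 3.52 and 4.80 to 8.02 CPM. The 9 myeloblast markers summed to between 117.5 and 122 CPM in sensitive and to between 16.8 and 16.9 CPM in resistant libraries, mainly through CD33 (104.8 ± 6.34 to 10.6 ± 1.26 CPM), in the same direction as CD44. The part of these markers in the CD44, MEIS1 and SOX4 values was not tested.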

How the data were processed

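RNA-seq counts of 6 K562 libraries were analysed. Per the labels' protocols, total RNA was treated with DNase, depleted of ribosomal RNA and sequenced in pairs from a stranded kit. The authors deposited whole-number counts for each Ensembl gene ID, not normalized. Per the submitters' processing notes, the authors used Trimmomatic 0.39, HISAT2 2.2.1, featureCounts and Subread 2.0.3 on GRCh38. Not given in the sources used here: annotation release, strand setting. Symbols came from a name table (61369 of 61487 IDs matched) and positions from GENCODE 29 (58312).

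Genes passing filterByExpr (20891) were compared with the robust quasi-likelihood test of edgeR 4.0.16 in R 4.3.3, with TMM scaling, two-sided, and Benjamini-Hochberg adjustment over all of them. An adjusted p below 0.05 is a call. The SE is the log2 fold change divided by the square root of F. CPM uses TMM-scaled totals. Folds against a group with 0 counts use 3 counts over that group and cover counting error only. Promoter windows are from RefSeq (GRCh38.p14), with all 9 genes matched, and 19 windows. The steps were tested on simulated data. The 20 alternatives, changed one at a time, were size factors of DESeq2 1.42.0, upper quartile factors, library totals alone, no filter, at least 50 counts in 3 libraries, the DESeq2 test, limma 3.58.1 (voom), a replicate block, an adjusted p below 0.01, glmTreat against 1.5-fold, each of the 6 libraries left out, both libraries numbered 3 left out, removal of mitochondrial, ribosomal RNA and the 10 most abundant features, length and GC offsets, and the block with those offsets.

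The genes and lists were chosen with earlier results of these data known. A gene of the regulator list is not reported here. Genes named are the 9, up to 4 per list by adjusted p, called relatives, neighbours of called genes, and the 2 most alike profiles per called gene (mean count at least 100). Genes that did not pass, and CEMIP, NF2, VCAN, the undetected genes and the neighbours of ERG and HLF, were named after their values were seen.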

Additional observations from a re-analysis of the deposited data

How the results depend on the processing

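CD44 and MEIS1 kept their direction and call under all 20 alternatives, with log2 fold changes from −5.42 to −4.80 and from −1.65 to −1.24. SOX4 kept its call under 18 (−1.42 to −1.04) and lost it against a 1.5-fold threshold (glmTreat, adjusted p = 0.0552) and without resistant replicate 2. MSI2 kept its direction (0.31 to 0.90) and its call under 13. MECOM was called under none. The number of the 9 genes called higher was 1, and 0 at an adjusted p below 0.01, against a 1.5-fold threshold, with length and GC offsets, and with the replicate block and those offsets. It was 2 with no filter and with both libraries numbered 3 left out, and 0 to 2 when single libraries were left out. The gene added where it was 2 was ERG, which enters any test only through its resistant counts. Without sensitive replicate 1 or without sensitive replicate 2, the 1 gene called higher was ERG and not MSI2. The number lower was 2 or 3 under every alternative.

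Over all genes, 2054 were higher and 2741 lower. The counts were 938 and 1586 at an adjusted p below 0.01, 840 and 1429 against a 1.5-fold threshold, 4645 and 5021 with both libraries numbered 3 left out, 1365 and 3393 with length and GC offsets, and 1906 and 4948 with the replicate block and these offsets. Leaving out single libraries gave 1051 to 3327 higher and 1677 to 3718 lower. Higher genes were 42.8% of calls, 58.9% with library totals alone (median log2 fold change of all genes 0.20) and 28.7% with length and GC offsets (−0.15). The replicate block alone gave 2859 and 3582, and changed no call among the 5 tested genes. The deviations of same-numbered libraries correlated at 0.20, 0.09 and 0.30, and those of unlike-numbered ones at −0.31 to 0.23. The value of the libraries numbered 3 was the highest. The labels do not state whether shared numbers mark pairs, and the main fit has no replicate block.

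Over the alternatives, the numbers of genes higher and lower ranged from 0 to 4 and 1 to 2 for the relatives, from 2 to 4 and 1 to 5 for the regulators, from 1 to 2 and 3 to 6 for the surface genes, from 1 to 2 and 2 to 9 for the CD44 list, and from 1 to 3 and 3 to 5 for the score genes. The call of CPXM1 was lost with limma-voom (−3.18, adjusted p = 0.0546) and with the replicate block (−3.33, 0.0721). Against a 1.5-fold threshold LMO2 (0.0916), ADAM17 (0.0965) and EZR (0.0906) did not pass. The causes were not tested. Depth limits CD34, PROM1, HLF and ERG, whose counts reached at most 22 per library.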
